A study of Bos taurus with 8 samples.

Results

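The collagens, laminins, matrilins, fibrillins, fibulins, ADAMTS proteases, their TIMP inhibitors and fibronectin were examined in bovine whole blood. They were taken by gene symbol from the probe names of the array, which gave 239 probes for 85 symbols out of 43653 probes and 16966 symbols in all. Blood was drawn from 5 female Holstein Friesian cows, all of which had been given a probiotic over the preceding 60 days; no age is given for them. In the group called CPE the blood was held with 10 µg/ml of a phenolic extract of cowpea leaves, and in the group called CONTROL it was held without the extract. Both stood for 30 min at 37 °C in a humid chamber with 5% CO2, and each group was read on 4 single-colour arrays. Since RNA was pooled by group, arrays within a group may repeat the same RNA, and each group had a slide of its own, so slide and extract cannot be told apart.

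Fibrillar collagens are secreted as long triple helices that give tissue its tensile strength, while collagen IV and the laminins build the sheet-like basement membrane beneath endothelium and epithelium. Fibulins, matrilins and fibronectin connect these networks with each other and with receptors on cells, ADAMTS proteases process them, and TIMPs inhibit metalloproteinases. Most of these proteins are known as products of fibroblasts, endothelium, epithelium and cartilage rather than of circulating leukocytes. The helix repeats a unit that starts with glycine, so a probe laid on the helical part carries the glycine codon GGN at the start of each unit.

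The probe sequences below are shown because the results turn on which probe of a gene is read. The 3 LAMA4 probes are given by the number of arrays on which they were detected (8, 3 and 0), then both COL1A1 probes with signal on every array, a pair of COL3A1 probes and 1 COL1A2 probe. They are 60 bases long, come from the array annotation, and capitals mark glycine codons that follow each other at the spacing of the helix, at least 4 in a row.
LAMA4 A_73_P381026: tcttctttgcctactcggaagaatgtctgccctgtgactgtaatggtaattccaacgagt
LAMA4 A_73_P081156: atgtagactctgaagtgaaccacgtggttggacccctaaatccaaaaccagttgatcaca
LAMA4 A_73_P313581: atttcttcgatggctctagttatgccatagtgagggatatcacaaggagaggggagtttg
COL1A1 A_73_P367886: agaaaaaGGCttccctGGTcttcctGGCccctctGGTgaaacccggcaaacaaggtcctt
COL1A1 A_73_P406841: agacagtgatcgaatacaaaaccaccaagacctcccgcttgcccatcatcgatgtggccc
COL3A1 A_73_P450934: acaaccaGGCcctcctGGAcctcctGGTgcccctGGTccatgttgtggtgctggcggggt
COL3A1 A_73_P094136: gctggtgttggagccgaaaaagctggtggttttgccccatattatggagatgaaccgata
COL1A2 A_73_P378891: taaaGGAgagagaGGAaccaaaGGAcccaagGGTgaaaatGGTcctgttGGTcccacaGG
The probes A_73_P367886 of COL1A1 and A_73_P450934 of COL3A1 each carry 4 such glycine codons. The motif of 4 units, GGNNNNNNNGGNNNNNNNGGNNNNNNNGG, was searched on both strands of every probe. It lay on the sense strand of 19 of the 114 collagen probes (16.7%), of 0 of the 125 other probes of these families and of 53 of all 43653 probes (0.121%). On the opposite strand it lay in 3 collagen probes and in 40 of all probes.

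Large areas of all 8 arrays were dim, and a low signal there says little about a transcript. A spot was therefore called bright on an array when the 90th percentile of log2 median intensity over its 61 nearest spots lay above the 90th percentile of that local value on the array minus 1.5 log2 units. Of the matrix probes, 69 of 239 lay in bright surroundings on all 8 arrays and the other 170 did not. Over the whole array 29.7% of spots were bright on all 8 arrays. The share of spots that the scanner software called well above background was 37.8% to 49.9% on CPE arrays and 26.4% to 37.1% on CONTROL arrays, and the 75th percentile of signal was 135 to 280 and 53.4 to 150 intensity units in those groups. In bright surroundings, PTPRC, ITGB2, LCP1 and CD53 of leukocytes and HBB and KLF1 of red cells were detected throughout. The red cell gene CA1 was detected there on no array. Of the epithelial and mammary list, CLDN4 and KRT8 were detected throughout, and the milk genes CSN1S1, CSN2, CSN3 and LALBA on no array.

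Few matrix genes were detected. Of the 69 bright matrix probes, 9 (13.04%) were well above background on all 8 arrays, against 7200 of 13010 bright probes of the whole array (55.3%). A further 22 matrix probes were well above background on 1 to 7 arrays. The lowest signal called well above background was 5.08 to 35.4 units on CPE arrays and 40.0 to 50.6 on CONTROL arrays. A dim probe could thus be called at a lower signal on CPE arrays. The remaining 38 (55.1%) were so on no array, against 24.6% of all bright probes. Counted by single readings in bright surroundings, 181 of 786 matrix readings (23.0%) and 61.5% of all readings were well above background. The 9 probes detected throughout had a median GC content of 53.3%, against 45.0% both for the bright matrix probes detected on some arrays and for those detected on none; a part of GC content in detection was not tested.

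By gene, 8 of the 85 symbols had a probe that was bright and well above background on all 8 arrays. They were COL1A1 and COL3A1 (fibrillar collagens), COL6A1 (a chain of the beaded-filament collagen VI), COL4A1 (a chain of basement membrane collagen IV), LAMA4 (a laminin alpha chain typical of vessel walls), FBLN2 (a fibulin of vessel walls and basement membranes), ADAMTSL4 (an ADAMTS-like protein without protease activity) and COL4A3BP. COL4A3BP matched the symbol pattern alone: it is CERT1 in RefSeq, a ceramide transfer protein and no collagen. Another 18 genes were detected on some arrays at a bright probe: ADAMTS1, ADAMTS16, COL15A1, COL18A1, COL27A1, COL2A1, COL4A2, COL4A3, COL5A3, COL6A5, COL9A2, FBLN1, FBLN5, LAMA5, LAMC1, MATN2, MATN3 and TIMP3. For MATN3 the only such reading was on CPE array 1, at an outlier spot whose signal was left out. The detection of MATN3 therefore rests on no retained signal. In 18 genes a probe lay in bright surroundings on all 8 arrays and was well above background on none: ADAMTS3, ADAMTS6, ADAMTS17, ADAMTS18, COL1A2, COL6A2, COL7A1, COL8A1, COL9A1, COL9A3, COL11A1, COL11A2, FBLN7, FBN2, FN1, LAMA3, MATN1 and TIMP4. In 5 of these 18, ADAMTS17, COL1A2, COL6A2, FBN2 and FN1, a different probe was well above background on an array where its spot was bright. The other 41 symbols could not be judged on all arrays: 26 had probes that were bright on some arrays only and 15 had no bright probe on any array. Of those 26 genes, 13 were well above background on at least 1 array where their spot was bright, among them ADAMTS4, ADAMTS5, COL6A3, TIMP1 and TIMP2.

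**Figure D1:**
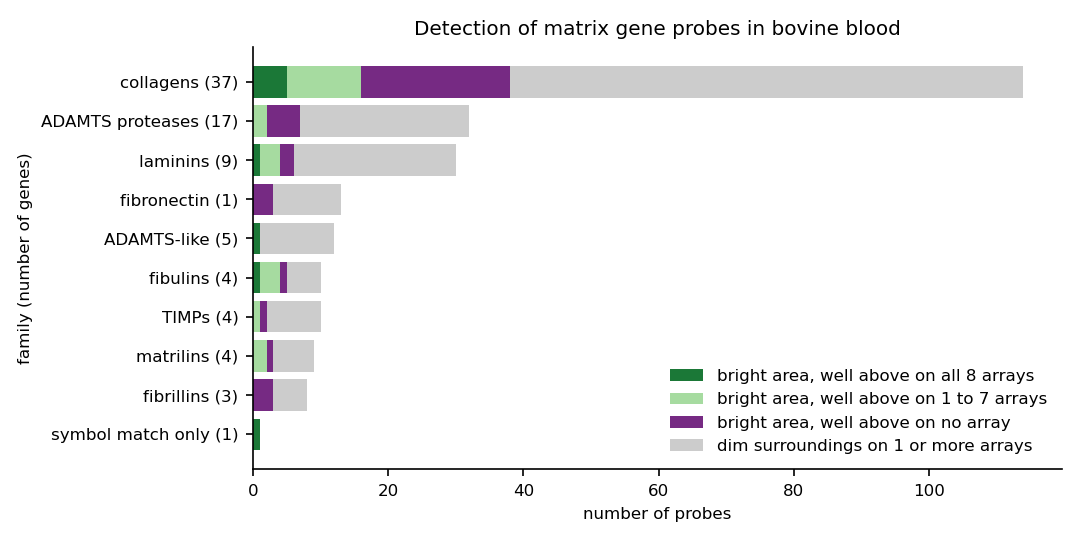
Number of probes (x axis) of each family (y axis, number of genes in brackets), split by whether the spot lay in bright surroundings on all 8 arrays and on how many arrays it was well above background. Collagens hold 5 of the 9 probes detected on all 8 arrays, and dim surroundings take 170 of the 239 probes.

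Fibronectin, FN1, which binds integrins and collagen and of which the liver secretes a soluble form into plasma, had 13 probes. Of these, 3 were bright on all 8 arrays and none was well above background there on any array. Their signals were 3.47 to 18.8 intensity units on CPE arrays and 8.03 to 13.7 on CONTROL arrays. These values lie next to the typical signal of spots not well above background, whose median was 3.72 to 7.10 on CPE arrays and 8.03 to 10.15 on CONTROL arrays. Over all its probes, 2 of 48 FN1 readings in bright surroundings were well above background. COL1A2, the partner chain of COL1A1 in collagen I, was likewise near this level at both probes bright on all 8 arrays. These gave 3.50 to 7.10 on CPE arrays and 8.11 to 14.8 on CONTROL arrays. A further COL1A2 probe, A_73_P368131, was bright on CPE arrays 1 and 2 only, but well above background on 7 of the 8 arrays. It had 31.9 to 56.9 units on CPE arrays and 23.3 to 64.8 on CONTROL arrays.

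Probes of the same matrix gene often disagreed on detection. The 5 genes with a probe detected on all 8 arrays and further bright probes had 11 such further probes. Only 1 of the 11 (9.09%) was also detected on all 8 arrays and 6 (54.5%) were detected on none. Over all 1411 such genes of the array, 68.1% of the further probes were detected on all 8 arrays and 11.5% on none. COL3A1 is an example: its probe A_73_P450934 gave 916 to 1202 units on CPE arrays and 730 to 1242 on CONTROL arrays, while its other 5 bright probes were well above background on at most 1 array each. For COL1A1, COL3A1 and LAMA4, a probe detected on all 8 arrays shares no run of 8 or more bases with any other bright probe of its gene. The levels of COL3A1 and LAMA4 therefore rest on 1 probe each, and those of COL1A1 on 2.

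**Figure D2:**
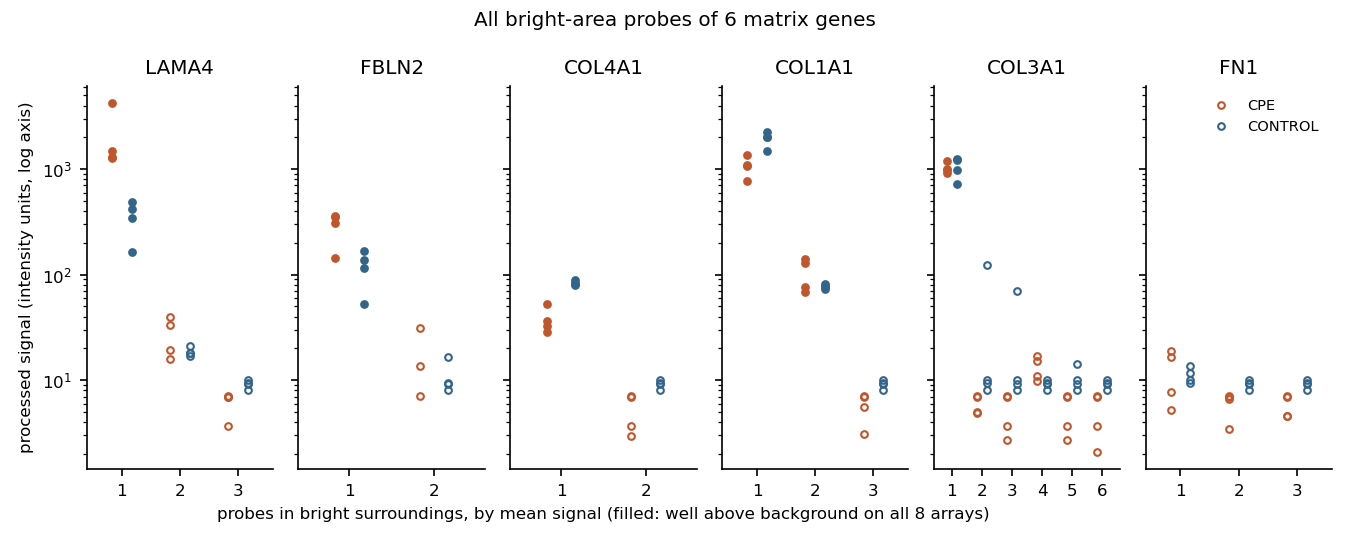
Processed signal (y axis, intensity units, log axis) of every bright-area probe of LAMA4, FBLN2, COL4A1, COL1A1, COL3A1 and FN1, 1 point per array, CPE left and CONTROL right; filled points are probes well above background on all 8 arrays. In LAMA4, FBLN2, COL4A1 and COL3A1 just 1 probe is filled, in COL1A1 2 probes, and in FN1 none.

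The comparison of CPE with CONTROL asks which transcripts differ after contact with the extract. Levels are log2 processed signal minus the 75th percentile of the bright probes of the same array, and the difference was tested with limma over the 7197 probes that were bright and well above background on all 8 arrays and could be fitted. Past an adjusted p of 0.05, 48.4% of these 7197 probes were called, 22.9% higher and 25.5% lower, and 50.1% had groups that did not overlap. This balance depends on the scaling: with dim areas kept, 38.1% of 9643 probes were called, 2.13% higher and 36.0% lower, and without scaling 271 probes were higher and 913 lower. Of the 9 matrix probes, 2 were higher in CPE (LAMA4 and FBLN2), 3 were lower (COL4A1, COL1A1 and COL6A1) and 4 were not past the threshold, and the same 5 had groups that did not overlap. Their median log2 difference was 0.14, against -0.0038 over all 7197. This median is the value of COL4A3BP, which is no matrix gene, and lies between ADAMTSL4 at -0.27 and COL3A1 at 0.17. A difference of more than 1 log2 unit was seen in 3 of the 9 probes, against 8.45% of all. In whole blood, fewer cells of a type and less RNA per cell cannot be told apart.

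**Figure D3:**
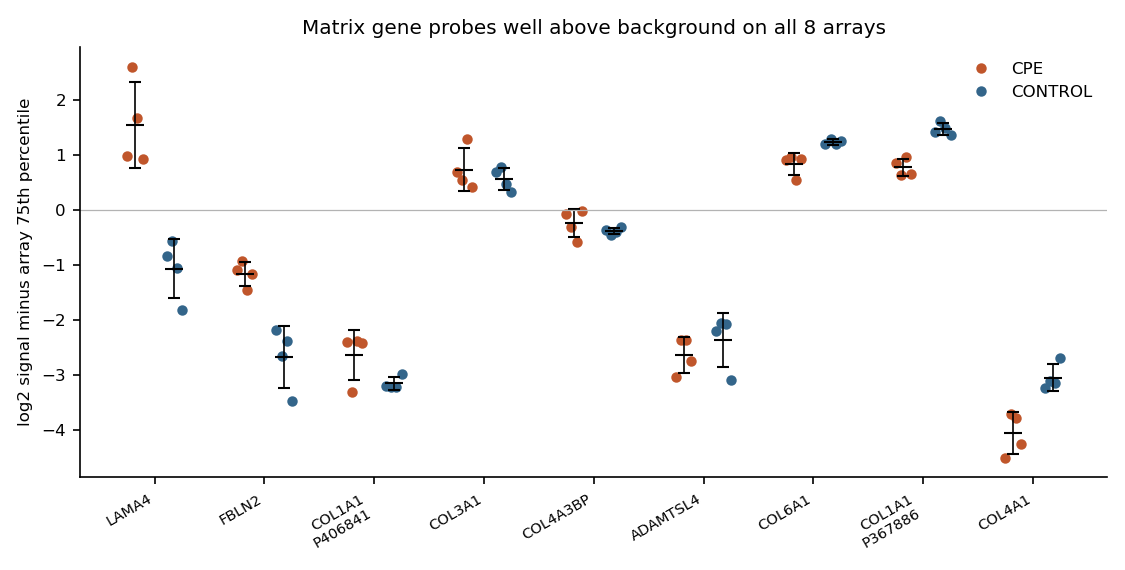
Log2 signal minus the array's 75th percentile (y axis) of the 9 matrix probes well above background on all 8 arrays, 1 point per array, CPE left and CONTROL right, with the mean and SD of 4 arrays. LAMA4 and FBLN2 lie higher in CPE without overlap, and COL6A1, COL1A1 at probe A_73_P367886 and COL4A1 lie lower without overlap.

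Collagen I divides between its probes. The helical COL1A1 probe A_73_P367886 had processed signals of 1351, 1072, 774 and 1082 units on CPE arrays 1 to 4, against 2031, 2233, 1997 and 1492 on CONTROL arrays 1 to 4. After scaling its levels were 0.78 ± 0.16 in CPE and 1.47 ± 0.11 in CONTROL (log2, SD, n = 4 each). All CPE arrays lay below all CONTROL arrays, and the difference was -0.70 (SE 0.10, limma adjusted p = 0.000726). The second probe, A_73_P406841, whose sequence holds no run of glycine codons, had signals of 142, 69.0, 75.6 and 128 units on CPE arrays, against 82.3, 77.7, 76.4 and 73.3 on CONTROL arrays. Its levels were -2.63 ± 0.46 in CPE and -3.16 ± 0.12 in CONTROL, with 3 CPE arrays above all CONTROL arrays and CPE array 2 below them. The difference of 0.52 (SE 0.20, limma adjusted p = 0.0610) did not pass and was opposite in sign to that of the helical probe. It passed without CPE array 2, at 0.75, and turned to -0.60 when spots in dim surroundings were kept in the scaling. The other bright COL1A1 probe was detected on no array. The direction of COL1A1 as a gene was thus not the same at its 2 detected probes.

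COL3A1, the fibrillar collagen of skin and vessel walls, had signals of 1202, 999, 972 and 916 units on CPE arrays, against 1218, 1242, 986 and 730 on CONTROL arrays. The groups overlapped, and the difference of 0.17 had a 95% interval of -0.27 to 0.60 (limma adjusted p = 0.496). COL6A1 had signals of 1409, 1334, 578 and 1308 units on CPE arrays, against 1731, 1783, 1629 and 1386 on CONTROL arrays. Scaled, it was 0.83 ± 0.20 in CPE and 1.23 ± 0.05 in CONTROL without overlap. COL6A1 thus fell by 0.40 log2 units (SE 0.11, limma adjusted p = 0.0133), and without scaling between arrays the difference was -0.57 with an adjusted p of 0.177.

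Of the basement membrane genes, COL4A1 fell and LAMA4 rose. COL4A1 was dim throughout, with 32.8, 52.2, 28.9 and 36.1 units on CPE arrays, against 80.1, 83.5, 80.9 and 89.4 on CONTROL arrays. The groups did not overlap before or after scaling, and the scaled difference was -1.02 (SE 0.20, limma adjusted p = 0.00304). With normexp on the median signal and an offset of 50 units in place of the processed signal, it was -0.095 with an adjusted p of 0.871. The parts of the offset, the median signal and the background method in this change were not tested. Its partner chain COL4A2 had 1 bright probe, well above background on 3 of the 8 arrays, and was not tested.

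LAMA4 showed the largest difference of the 9 probes. Its probe A_73_P381026 had 1483, 4192, 1263 and 1312 units on CPE arrays, against 422, 490, 342 and 164 on CONTROL arrays. The lowest CPE array was above the highest CONTROL array, and CPE array 2 stood highest. Scaled levels were 1.55 ± 0.78 in CPE and -1.07 ± 0.54 in CONTROL, a difference of 2.62 (SE 0.40, limma adjusted p = 0.000869), or 6.16-fold. The other bright LAMA4 probes did not show such a signal: A_73_P081156 gave 15.9 to 40.1 units on CPE arrays, with 3 of 4 well above background, and 17.1 to 21.3 on CONTROL arrays, with 0 of 4, and A_73_P313581 was detected on no array. The 2 detection counts of A_73_P081156 are not alike, since it was called at 19.4 units on CPE array 3 and not at 21.3 on CONTROL array 1.

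The surroundings of the LAMA4 spot also read higher in CPE. The 60 nearest tested probes had a median difference of 0.48, with a 10th percentile of -0.34 and a 90th percentile of 1.47. With the local deviation of each array subtracted, LAMA4 was still 1.89 higher, and over the whole array 1.501 higher. When bright surroundings were defined by more neighbours or by a limit of 1 log2 unit, this spot no longer counted as bright on all 8 arrays. The endothelial marker list, which bears on a vessel-wall laminin, had 2 of 12 genes detected throughout, ROBO4 and VWF, with bright probes of ERG and KDR detected on no array. The summed level of these 2 was 0.50 to 0.66 times the 75th percentile on CPE arrays and 0.31 to 0.37 on CONTROL arrays, without overlap. Of the 2, VWF passed, at 1.13 higher, and ROBO4 did not, and the same VWF probe is also in the platelet list. The part of this sum in the LAMA4 difference was not tested.

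FBLN2 had 352, 359, 145 and 307 units on CPE arrays, against 167, 115, 137 and 52.3 on CONTROL arrays. Unscaled, CPE array 3 lay below CONTROL array 1, and after scaling the groups did not overlap. Scaled levels were -1.16 ± 0.22 in CPE and -2.67 ± 0.57 in CONTROL, a difference of 1.51 (SE 0.26, limma adjusted p = 0.00165), or 2.85-fold. With spots in dim surroundings kept in the scaling, the difference was 0.39 with an adjusted p of 0.505, so the size of the FBLN2 difference rested on the area used. Its other bright probe, A_73_P398616, was well above background on 1 array.

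ADAMTSL4 and COL4A3BP did not pass. ADAMTSL4 at probe A_73_P395581 had 90.9, 133, 76.8 and 102 units on CPE arrays, against 164, 173, 169 and 67.8 on CONTROL arrays. CONTROL array 4 was the lowest of all 8 in signal, and the difference of -0.27 had a 95% interval of -0.85 to 0.30 (limma adjusted p = 0.397). COL4A3BP had 711, 558, 266 and 677 units on CPE arrays, against 590, 532, 543 and 465 on CONTROL arrays, a scaled difference of 0.14 with an interval of -0.15 to 0.42 (limma adjusted p = 0.390). Both passed with the local deviation subtracted, at -0.52 and 0.30, a setting under which 5041 of all 7197 probes passed. ADAMTSL4 also passed without CONTROL array 4, at -0.52 (limma adjusted p = 0.0426), and COL4A3BP without CPE array 3, at 0.25 (limma adjusted p = 0.0339).

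**Figure D4:**
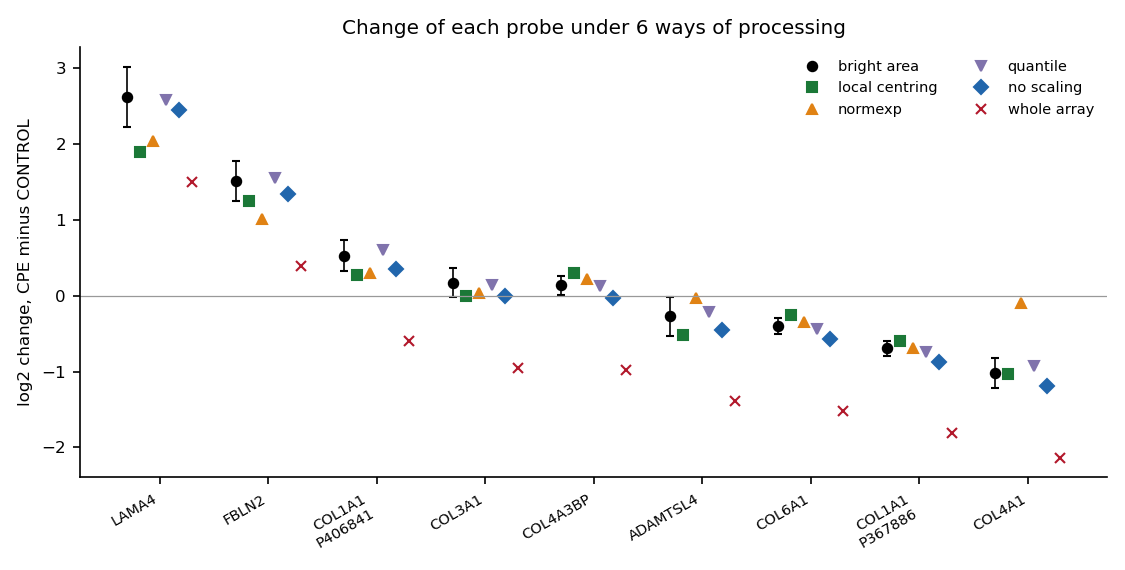
Log2 difference, CPE minus CONTROL (y axis), of the same 9 probes under 6 ways of processing; the bar on the black point is the SE. LAMA4 and FBLN2 stay above 0 and COL6A1, COL1A1 at A_73_P367886 and COL4A1 stay below 0 in all 6, while COL4A1 reaches -0.095 with normexp and the whole-array values lie lowest for every probe.

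Another 6 matrix probes were well above background throughout 1 group only. Of the 8057 probes that met this wider filter, 48.2% were called, 23.8% higher and 24.4% lower, and 50.6% had groups that did not overlap. A probe that enters through the group where it is high is already chosen for a difference, so these are given as levels with no test. MATN2, a matrilin that forms filaments around cells, was not well above background on any CPE array, with 4.38, 7.10, 4.69 and 7.14 units there, against 118, 92.4, 104 and 59.7 on CONTROL arrays. Its level was at least 4.36-fold lower in CPE, measured against the lowest signal well above background on each CPE array; measured means were -6.75 ± 0.45 in CPE and -2.93 ± 0.26 in CONTROL. Without CPE array 3 the bound was 3.28-fold. TIMP3, a metalloproteinase inhibitor bound to the matrix, had 81.5, 70.0, 44.6 and 78.3 units on CPE arrays, against 51.7, 46.6, 46.0 and 40.2 on CONTROL arrays. Its scaled levels were -3.20 ± 0.07 in CPE and -3.91 ± 0.06 in CONTROL (mean ± SD of 4 arrays), and 2 of the CONTROL arrays measured it well above background. The protease ADAMTS16 had 100.2, 124, 47.7 and 115 units on CPE arrays, against 79.0, 54.7, 65.4 and 29.2 on CONTROL arrays. Its scaled levels were -2.75 ± 0.27 in CPE and -3.69 ± 0.46 in CONTROL, and 3 of the CONTROL arrays measured it well above background. COL5A3 (-3.22 ± 0.45 in CPE and -3.65 ± 0.20 in CONTROL), FBLN1 (-3.65 ± 0.71 and -4.03 ± 0.65) and COL27A1 (-3.90 ± 0.13 and -3.42 ± 0.69) entered in the same way.

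Some members were well above background on all 8 arrays although their spots were not in bright surroundings throughout, and only their levels are given. COL22A1 had signals of 107 to 2332 units on CPE arrays and 66.5 to 856 on CONTROL arrays. ADAMTS17 had 623 to 1002 units on CPE arrays and 299 to 935 on CONTROL arrays, although another ADAMTS17 probe was bright and detected on no array. TIMP1, an inhibitor that leukocytes are known to secrete, had 52.6 to 413 units on CPE arrays and 78.9 to 234 on CONTROL arrays. ADAMTSL5 had 37.8 to 82.8 and 58.4 to 102 units in those groups.

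How far the surroundings move with a reading can be seen where 1 spot was bright on some arrays and dark on others. ADAMTSL4 at probe A_73_P313531 had 463 to 927 units on the 4 CPE arrays and 759 to 1031 on CONTROL arrays 1 to 3, where its surroundings were bright. On CONTROL array 4 its surroundings read -3.96 log2 units relative to the array's upper level and it had 25.6 units. TIMP2, another metalloproteinase inhibitor, had 612 and 448 units on CPE arrays 2 and 3 at probe A_73_P101241, where the surroundings were brightest, and 8.03 to 23.4 units on the other 6 arrays. TIMP1 at probe A_73_P044976 had 287 and 125 units on CPE arrays 2 and 3, and 4.94 to 10.15 units on the other 6. Not every spot followed its surroundings in this way. ADAMTS17 at probe A_73_100053 had 623 to 1002 units on the 4 CPE arrays, where its surroundings were bright. It had 700 to 935 units on CONTROL arrays 1 to 3, with surroundings at -1.89 to -1.51, and 299 on CONTROL array 4, at -3.66. COL22A1 had 2332 units on CPE array 3 with surroundings at -3.09. None of these probes was compared between groups.

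**Figure D5:**
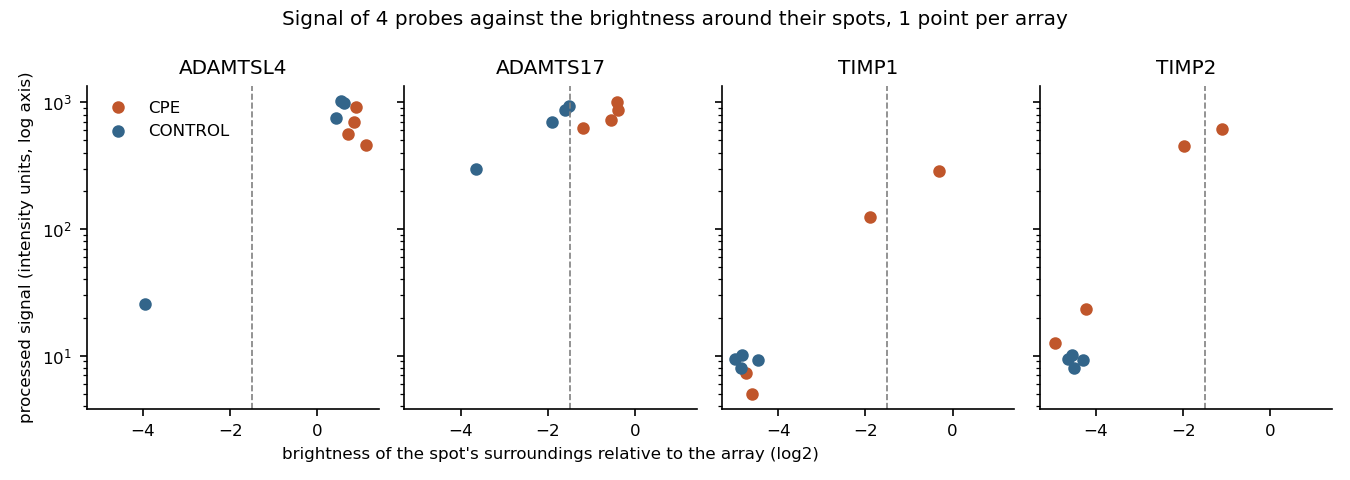
Processed signal (y axis, intensity units, log axis) of 4 probes against the brightness around their spot relative to the array's upper level (x axis, log2), 1 point per array; the dashed line is the limit of -1.5. ADAMTSL4 has 25.6 units on CONTROL array 4, the only array on which its surroundings lie left of the line, and TIMP1 (A_73_P044976) and TIMP2 are high on CPE arrays 2 and 3. ADAMTS17 has 623 to 1002 units on CPE arrays, right of the line, and 299 to 935 on CONTROL arrays, left of it.

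Other matrix genes, taken from lists of matricellular proteins, proteoglycans, collagen-modifying enzymes, proteases and receptors, were read from the same fit. Of 47 tested probes of 39 genes, 2 were higher and 19 lower in CPE, against 22.9% and 25.5% of all probes, with a median difference of -0.20. With local centring the counts were 8 higher and 25 lower, and with normexp 0 higher and 13 lower. Over all 7197 probes they were 2512 higher and 2529 lower with local centring, and 988 higher and 949 lower with normexp. Among 9 probes of matricellular and basement membrane genes, VWF, the platelet-binding factor of endothelium and platelets, was 1.13 higher (SE 0.21, limma adjusted p = 0.00280). In the same list NID1, which links laminin to collagen IV, was -1.74 (SE 0.11), and TGFBI, a collagen-binding protein of monocytes and macrophages, was -0.78 (SE 0.17), and both passed. Of 5 proteoglycan probes, 2 fell and none rose: DCN, the collagen-binding decorin (-1.54, SE 0.13), and GPC2, a glypican (-0.80, SE 0.09).

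Of 6 probes of collagen-modifying enzymes, the prolyl hydroxylase subunit P4HA2 was 0.29 higher (SE 0.10), and 2 fell, the lysyl oxidase LOXL3 (-0.92, SE 0.10) and the lysyl hydroxylase PLOD1 (-0.44, SE 0.11). Of 16 probes of metalloproteinases and other matrix-degrading enzymes, 7 fell and none rose; here and for the other lists the shares over all 7197 probes were 25.5% lower and 22.9% higher. The largest falls were in ADAM19 (-1.95, SE 0.20), the urokinase gene PLAU (-1.01, SE 0.10) and ADAM15 (-0.98, SE 0.21). Brighter probes of the same genes, also among the 7, fell less. The brighter ADAM19 probe was at -0.50 (mean in CPE 2.17, against -3.79 for the first). The brighter ADAM15 probe was at -0.70 (mean in CPE -0.54, against -3.46). Of 11 probes of integrins and matrix receptors, 6 fell and none rose, led by the collagen receptor DDR1 (-1.14, SE 0.18), the leukocyte integrin chain ITGAL (-0.96, SE 0.09) and ITGA9 (-0.83, SE 0.13).

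Markers of blood cells moved beside these counts. Of 13 tested probes of T cell genes, 8 were higher and 0 lower in CPE, against 22.9% and 25.5% of all probes, and their summed level was 72.2 to 95.7 times the 75th percentile on CPE arrays and 49.8 to 53.9 on CONTROL arrays. NK cell markers (3 of 8 genes tested) summed to 33.9 to 38.8 on CPE arrays and 17.2 to 20.0 on CONTROL arrays. Of these, GNLY was 1.25 higher and NKG7 was lower (-0.79). Monocyte markers (4 of 8 genes) summed to 20.0 to 22.1 and 26.2 to 28.9, with 2 probes lower. Both were probes of CSF1R (-0.74 and -0.32), and the other monocyte genes tested did not pass. The sums of leukocyte, B cell, neutrophil, platelet and red cell markers overlapped between the groups, although single genes of these lists passed. All 5 neutrophil probes passed, 2 higher (BPI and S100A12) and 3 lower (CSF3R at -0.93 and CXCR2 at -1.12 and -0.99). Of 5 platelet probes, 2 were higher (PPBP at 1.46 and VWF at 1.13) and 0 lower. Leukocyte markers had 1 of 7 probes higher and 1 lower, B cell markers 1 of 5 lower, and the 2 red cell probes did not pass. Of the fibroblast list, 4 of 14 genes were detected throughout, COL1A1, COL3A1, DCN and S100A4, of which leukocytes are known to express S100A4. Neither of the COL1A2 probes that were bright on all 8 arrays was detected on any array. Of 6 tested probes of this list, 0 were higher and 2 lower, DCN (-1.54) and COL1A1 at A_73_P367886 (-0.70). The sum over the list was 82.4 to 99.7 on CPE arrays and 89.98 to 97.0 on CONTROL arrays. The 2 probes that fell had mean log2 levels of 0.61 and 1.47 in CONTROL, so they are a small part of this sum. Of the epithelial and mammary list, 2 of 14 genes were detected throughout, and no probe passed, with a sum of 1.69 to 1.86 on CPE arrays and 1.82 to 1.96 on CONTROL arrays. The part of these cell types in the matrix gene differences was not tested.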

How the data were processed

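The deposited scanner files hold a processed signal intensity per spot, made with Agilent Feature Extraction 10.10.1.1 per the submitters' processing notes; per the file headers this intensity was background-subtracted by that software, and it was not normalised between arrays. A further deposited table gives the authors' group averages on a log2 scale; for 99.5% of the 43653 probes its CPE minus CONTROL difference lay within 0.01 log2 units of that of whole-array scaling to the 75th percentile. The matrix genes and all lists were chosen with earlier results of these data known. RefSeq (ARS-UCD2.0) served for names alone, with 165 of the 239 probes matched by accession and 74 by symbol.

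Control spots and the signals of outlier spots were left out, and duplicate spots were averaged. Calls of well above background were kept at outlier spots. Log2 signals of bright spots minus the array's 75th percentile were tested with limma 3.58.1 in R 4.3.3 (lmFit, eBayes, two-sided, Benjamini-Hochberg over all probes tested, threshold 0.05). The same script was checked on simulated data. Of 7200 bright probes detected throughout, the 3 with under 2 values in a group were left out. Normexp (offset 50) used the median signal, since the files hold no mean signal. Every matrix gene detected throughout is named, genes undetected in a group are named with a bound, and up to 3 rises and 3 falls are named per other list. P-values describe the spread between arrays, whose number limits precision. Same-numbered arrays correlated at -0.17 to 0.41 in their deviations, against -0.43 to 0.30 for arrays of different number. These values cannot decide whether the numbers pair the arrays, and the main fit used no pairing. Alternatives were other background, scaling, filter, area, variance and blocking choices, 1 probe per gene and leaving out each array.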

Additional observations from a re-analysis of the deposited data

Results flagged for a closer look

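In 4 of 30 groups of 4 arrays examined, 1 array stood apart from the other 3 by the Dixon test; chance gives about 5% of groups. COL6A1 was 0.54 on CPE array 3, against 0.91 to 0.96 on the other CPE arrays. COL1A1 at probe A_73_P406841 was -3.32 on CPE array 2, against -2.43 to -2.40 on the others, and -2.98 on CONTROL array 4, against -3.22 to -3.21. ADAMTSL4 at probe A_73_P395581 was -3.10 on CONTROL array 4, against -2.21 to -2.06 on the others (all log2 levels).

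Among spots in dim surroundings, which entered no comparison, 3 matrix probes were well above background on all 4 CPE arrays and on 0 CONTROL arrays. Their median CPE signals were 98.0 units for the aggrecan-cleaving protease ADAMTS5, 563 for ADAMTSL4 at probe A_73_P032981 and 114 for COL6A2. The opposite was seen at 2 such probes, well above background on 0 CPE arrays and on all 4 CONTROL arrays: COL13A1 with 3.72 to 20.4 units on CPE arrays and 58.1 to 83.4 on CONTROL arrays, and FBLN7 at probe A_73_104143 with 7.22 to 27.6 and 61.4 to 98.0. The difference between groups was not tested at these spots.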

How the results depend on the processing

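The 5 matrix probes past the threshold ranged from 5 to 6 when each array was left out in turn. With the filter on 1 group the count was 8 of 15 (4 higher, 4 lower), against 48.2% of all 8057 probes. Probes added by this filter entered through 1 group and can be chosen for a difference already. The higher count is therefore no test of those added probes, and no conclusion is drawn from it. With no filter, which takes in signals at floors that differ between arrays, the count was 33 of 69 (7 higher, 26 lower). This stands against 5637 of all 13006 probes under the same setting. Over all 7197 probes, 3481 passed (1648 higher, 1833 lower), against 1937 with normexp (988 and 949) and 5041 with local centring (2512 and 2529). Without scaling 1184 passed (271 and 913, with the median of all probes at -0.18). With no filter 5637 of 13006 passed (1982 and 3655), and over the whole array 3678 of 9643 (205 and 3473). Leaving out an array gave 2860 to 4046. The other matrix gene probes past the threshold numbered 21 of 47, against 13 of 47 with normexp and 33 of 47 with local centring. They numbered 45 of 116 with no filter, 35 of 70 over the whole array and 17 to 26 with an array left out. Detected matrix probes numbered 9 as reported, 15 on all arrays of 1 group and 31 on at least 1 array; with dim surroundings these were 13, 30 and 91. The MATN2 bound was 9.49-fold over the whole array and 3.28 to 5.22-fold with an array left out.

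Of 194 values of the 9 matrix probes under alternatives, 166 kept their direction and their side of the threshold. COL3A1 changed sign without scaling (-0.0064), over the whole array (-0.95), with local centring (-0.0040) and without CPE array 3 (-0.019), within a range of -0.019 to 0.27 with an array left out. COL4A3BP did so without scaling (-0.037) and over the whole array (-0.98), and COL1A1 at A_73_P406841 over the whole array (-0.60); the cause was not tested. With an array left out, LAMA4 stayed at 2.27 to 2.83, FBLN2 at 1.24 to 1.67, COL1A1 at A_73_P367886 at -0.76 to -0.65, COL6A1 at -0.44 to -0.30, ADAMTSL4 at -0.52 to -0.14, COL4A3BP at 0.063 to 0.25, COL1A1 at A_73_P406841 at 0.44 to 0.75 and COL4A1 at -1.13 to -0.87. With the replicate number as a block, 6 matrix probes passed, 3 higher and 3 lower, COL1A1 at A_73_P406841 being the addition at an adjusted p of 0.0410, and 1651 probes were higher and 1778 lower over all. LAMA4 had no value with the larger neighbourhood and the limit of 1 log2 unit, and ADAMTSL4 none with that limit. Signals of COL4A1, TIMP3 and ADAMTS16 lay near background, which limits their values.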
